A study of Homo sapiens with 8 samples.

Results

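The human mitochondrial genome carries 37 annotated genes, and the 10 described here are its 2 ribosomal RNA genes, MT-RNR1 (12S rRNA) and MT-RNR2 (16S rRNA), and 8 of its 13 protein-coding genes, MT-ND1, MT-ND4, MT-ND5, MT-CYB, MT-CO1, MT-CO2, MT-CO3 and MT-ATP6. They were found by GENCODE symbol, all 10, among 58735 Ensembl genes listed for each library. RNA sequencing was done on 22Rv1, an established human prostate carcinoma line with epithelial features, grown from a relapsed xenograft. Control cells received the vehicle DMSO (4 libraries) and treated cells received PCC0208017, which the labels call a MARK3 inhibitor and give no dose or duration for (4 libraries). MARK3 is a kinase of microtubule-associated and polarity proteins. Both groups were the same cell line, and the labels do not say whether replicates were separate cultures. The p-values below therefore measure the spread between these libraries, which may be technical. The comparison asks how the mitochondrially encoded transcripts differed between inhibitor-treated and control cells, with the rRNAs set against the mRNAs.

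Mitochondrial DNA is a compact circle that is transcribed by a dedicated polymerase from promoters near its control region into long precursors covering many genes. The heavy-strand transcripts hold both rRNAs, most tRNAs and all mRNAs except MT-ND6. In the tRNA punctuation model, enzymes cut out the tRNAs that lie between the other genes and so release the rRNAs and mRNAs, whose levels are then set largely by their individual stability. The rRNAs form the core of the mitochondrial ribosome, and the mRNAs encode core subunits of respiratory complexes I, III and IV and of the ATP synthase, complex V. All other subunits, and every protein that transcribes, cuts or translates these RNAs, are made from nuclear genes.

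The borders below show how little sequence separates the genes compared here. The first joins both rRNA genes and has the 69 bases of the valine tRNA gene MT-TV in capitals, with the last bases of the 12S gene before it and the first of the 16S gene after it. It lies at chrM:1577-1695 of hg38, plus strand.
12S, valine tRNA and 16S: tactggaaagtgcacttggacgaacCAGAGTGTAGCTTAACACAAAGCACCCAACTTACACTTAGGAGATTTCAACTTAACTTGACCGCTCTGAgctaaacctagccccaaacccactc
The second runs from the end of the 16S gene over the 75 bases of the leucine tRNA gene MT-TL1, in capitals, into MT-ND1, whose level differed from that of the 16S rRNA in direction. It lies at chrM:3205-3331, plus strand.
16S, leucine tRNA and ND1: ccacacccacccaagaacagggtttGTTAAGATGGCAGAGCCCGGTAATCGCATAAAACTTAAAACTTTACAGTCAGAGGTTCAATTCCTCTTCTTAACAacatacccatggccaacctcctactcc
The third shows in capitals the 46 bases that MT-ATP8 and MT-ATP6 share, at which reads cannot be given to 1 gene from sequence alone. It lies at chrM:8502-8597, plus strand.
ATP8 and ATP6: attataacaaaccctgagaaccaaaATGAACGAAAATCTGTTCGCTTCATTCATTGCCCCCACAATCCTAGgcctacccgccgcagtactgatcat
The fourth has the last 25 bases of MT-ND5 in capitals and then, with a gap of 0 bases, the end of MT-ND6, which is read from the other strand. It lies at chrM:14124-14173, plus strand.
ND5 and ND6: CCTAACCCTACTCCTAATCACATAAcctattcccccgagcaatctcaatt
No label or file header gives the strand setting of the counting, so reads copied from opposite strands of one place may not have been told apart.

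Control libraries held 12672817 to 13386143 counts and inhibitor-treated ones 13517289 to 21271127, the most in inhibitor replicate 2. Each of the 10 genes had between 12231 and 340089 counts in every library, so their counting error was small. Of 8 prostate epithelial markers CDH1 was higher (0.31 ± 0.053 on the log2 scale) and 5 were lower with the inhibitor, KLK3 (−4.74 ± 0.16), TMPRSS2 (−3.53 ± 0.09), KLK2 (−3.45 ± 0.091) and SLC45A3 (−2.42 ± 0.071) the most. Their sum was lower in every treated library, at 1628.8 ± 34.4 CPM (counts scaled per-million of the library total) in controls and 1441.1 ± 41.4 CPM with the inhibitor. The 2 that were not called, the keratin gene KRT8 (537.5 to 596.0 CPM) and the adhesion gene EPCAM (91.6 to 109.2 CPM), were present in all 8 libraries. Of 10 markers of other cell types only COL1A1 passed the count filter, and it rose by 0.68 ± 0.13 on the log2 scale (adjusted p = 0.000158). The markers of other cell types summed to 9.53 to 13.9 CPM in controls and to 14.4 to 23.0 CPM with the inhibitor, nearly all of it from COL1A1. COL1A1 alone stood at 8.2 to 13.2 CPM in controls and at 14.3 to 22.5 CPM with the inhibitor. DCN, with at most 9 counts a library, stood at 0.149 to 0.681 CPM in controls and at 0 to 0.094 CPM with the inhibitor. The rest had at most 6 counts a library, with CD3E and PECAM1 at 0 throughout. The part of either marker list in the results was not tested. Nuclear RNAs without a poly(A) tail, a list chosen to show how much of such RNA the libraries hold, summed to 48.4 to 89.0 CPM (TMM scale) with overlapping groups, nearly all of it from RN7SL2. Many others of the list, such as RN7SL1, RN7SK and RMRP, were at 0 CPM in all 8 libraries. Why they were at 0 was not tested, so the sum cannot give the amount of such RNA.

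The 10 genes did not move as 1 block. The 16S rRNA rose, the 12S rRNA did not pass the test, and 4 mRNAs fell, 3 of them encoding complex I subunits. All 10 passed the count filter. In a fit over the 16452 genes that passed the count filter (edgeR quasi-likelihood, Benjamini-Hochberg adjusted p under 0.05), 1 of the 10 was called higher, 4 lower and 5 neither. Across all tested genes 58.1% were called, 29.8% higher and 28.3% lower, so 5 calls among 10 genes is close to the background. The libraries of the groups did not overlap for 4 of the 10 genes, against 51% of all tested genes. Called genes split into 4899 higher and 4652 lower with TMM scaling, the method that sets libraries to a common level from the bulk of the genes. Scaling to total counts instead moved the share of higher among called genes from 51.3% to 63.5% and the median log2 difference of all genes from 0.021 to 0.13. That matters for the mitochondrial genes, because most of their differences were small: with total counts the 10 genes gave 2 higher and 1 lower. In bulk RNA, more of a transcript per mitochondrion, more mitochondria per cell and a change in the mix of cells cannot be told apart.

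**Figure D1:**
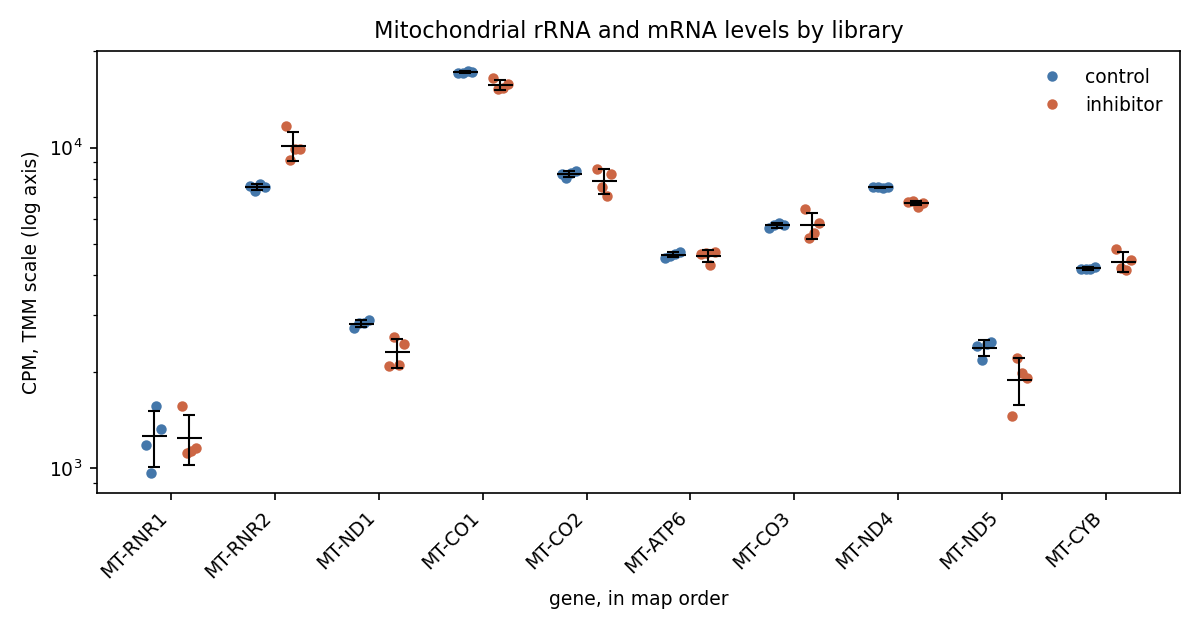
Level of each of the 10 genes in every library, in CPM on the TMM scale (log axis), genes in map order, with controls in blue, inhibitor-treated libraries in orange, and the mean and SD of each group as bars. The 16S rRNA MT-RNR2 is the gene whose inhibitor-treated libraries all lie above the controls, MT-ND1, MT-ND4 and MT-CO1 lie wholly below them, and the groups overlap for the other 6.

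The 16S rRNA, the RNA of the large mitochondrial ribosomal subunit that holds its peptidyl transferase centre, was higher with the inhibitor. MT-RNR2 (ENSG00000210082, chrM:1671-3229, plus strand, 1559 bases) stood at 7617.7, 7326.9, 7686.2 and 7518.3 CPM (on the TMM scale, as all levels below) in controls 1 to 4 and at 11657.4, 9131.2, 9894.4 and 9929.8 in inhibitor replicates 1 to 4. All 4 treated libraries lay above all 4 controls, and inhibitor replicate 1 was the highest. The mean went from 7537.3 ± 156.3 to 10153.2 ± 1068.3 CPM (SD, n = 4 each), 1.35-fold, a log2 difference of 0.43 ± 0.065 (SE, adjusted p = 3.67e-06). The call held under all 18 alternative settings, with log2 differences from 0.34 to 0.53. The smallest, 0.34, came without inhibitor replicate 1.

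The 12S rRNA, the RNA of the small ribosomal subunit, did not pass the test. MT-RNR1 (ENSG00000211459, chrM:648-1601, plus strand, 954 bases) stood at 1180.5, 966.4, 1564.8 and 1331.4 CPM in controls and at 1570.8, 1120.4, 1131.4 and 1158.3 CPM with the inhibitor. The groups overlapped. Control replicate 3 was the highest of a graded spread of controls, and inhibitor replicate 1 stood well above the other treated libraries. Means were 1260.8 ± 252.0 and 1245.2 ± 217.6 CPM (SD, n = 4 each), and the log2 difference was −0.018 ± 0.18 (adjusted p = 0.945). Its sign depended on the scaling and on single libraries, from −0.17 without inhibitor replicate 1 to 0.099 at the other end of the alternatives. Its standard error was the largest of the 10 genes. It also had the widest spread of them in controls, with a coefficient of variation of 20% against 0.34% for the tightest, MT-ND4.

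Within the rRNAs, the 16S to 12S ratio of counts per kilobase was 3.95, 4.64, 3.01 and 3.46 in controls and 4.54, 4.99, 5.35 and 5.25 with the inhibitor. The means were 3.76 ± 0.70 and 5.03 ± 0.361, and the groups overlapped through control replicate 2 and inhibitor replicate 1. Whether both rRNAs responded differently was not tested beyond this ratio. Both rRNAs lie on 1 precursor, with the 69 bases of MT-TV printed above between them. MT-TV itself was counted at only 1.11 CPM in controls and did not pass the test (log2 difference −0.42 ± 0.31, adjusted p = 0.257).

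Complex I, the NADH dehydrogenase at the entry of the respiratory chain, accounted for most of the lower mRNAs. MT-ND1 (ENSG00000198888, chrM:3307-4262, plus strand, 956 bases), which encodes a membrane subunit next to the quinone site, stood at 2740.4, 2832.8, 2836.3 and 2902.2 CPM in controls and at 2093.6, 2567.4, 2102.1 and 2439.7 CPM with the inhibitor. Every treated library was below every control. The mean fell from 2827.9 ± 66.5 to 2300.7 ± 240.0 CPM, 1.23-fold, a log2 difference of −0.30 ± 0.064 (adjusted p = 0.000292), and the call held in all 18 alternatives (−0.36 to −0.19). MT-ND1 begins 2 bases after MT-TL1, which follows the 16S gene in the sequence above, so these neighbours on 1 strand differed in opposite directions. The 16S to ND1 ratio of counts per kilobase was 1.70, 1.59, 1.66 and 1.59 in controls and 3.41, 2.18, 2.89 and 2.50 with the inhibitor. This ratio needs no library scaling, and its groups did not overlap (1.64 ± 0.058 and 2.74 ± 0.532).

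MT-ND4 (ENSG00000198886, chrM:10760-12137, plus strand, 1378 bases) encodes a proton-pumping subunit of the membrane arm. It stood at 7541.4, 7537.2, 7494.9 and 7553.7 CPM in controls and at 6758.3, 6828.7, 6554.4 and 6739.8 CPM with the inhibitor. Both groups were tight and did not overlap. The mean went from 7531.8 ± 25.6 to 6720.3 ± 117.1 CPM, a log2 difference of −0.16 ± 0.053 (adjusted p = 0.00971), but the call was lost with total-count scaling (−0.060, adjusted p = 0.193).

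MT-ND5 (ENSG00000198786, chrM:12337-14148, plus strand, 1812 bases) encodes the other large pump subunit at the far end of that arm. Controls stood at 2415.9, 2171.9, 2438.3 and 2485.3 CPM and treated libraries at 1456.7, 2212.2, 1980.5 and 1913.6 CPM. The groups overlapped through control replicate 2 and inhibitor replicate 2, and inhibitor replicate 1 was far the lowest. The mean fell from 2377.8 ± 140.3 to 1890.8 ± 316.4 CPM, a log2 difference of −0.33 ± 0.095 (adjusted p = 0.00725). Without inhibitor replicate 1 the difference was −0.24 (adjusted p = 0.0015), and with total-count scaling the call was lost (−0.22, adjusted p = 0.149).

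Complex III has 1 mitochondrial subunit, cytochrome b, and its mRNA did not pass the test. MT-CYB (ENSG00000198727, chrM:14747-15887, plus strand, 1141 bases) stood at 4171.2, 4200.4, 4185.3 and 4256.3 CPM in controls and at 4833.5, 4207.5, 4146.4 and 4449.7 CPM with the inhibitor. The groups overlapped, with inhibitor replicate 1 the highest and inhibitor replicate 3 the lowest of all. The log2 difference was 0.069 ± 0.057 (adjusted p = 0.313), 0.004 without inhibitor replicate 1, and 0.17 with total-count scaling, under which it was called higher (adjusted p = 0.00181).

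Complex IV, cytochrome c oxidase, has its 3 core subunits encoded here. MT-CO1 (ENSG00000198804, chrM:5904-7445, plus strand, 1542 bases), the catalytic subunit with both haem a centres, stood at 17142.0, 17107.8, 17354.2 and 17186.2 CPM in controls and at 16475.2, 15248.7, 15319.6 and 15749.9 CPM with the inhibitor. No treated library reached the controls. The mean fell from 17197.6 ± 109.2 to 15698.3 ± 563.2 CPM, a log2 difference of −0.13 ± 0.055 that only just passed (adjusted p = 0.0438). It was lost in 10 of 18 alternatives, among them upper-quartile scaling (−0.10, adjusted p = 0.134), total-count scaling (−0.028, adjusted p = 0.553) and leaving out each control in turn or each of inhibitor replicates 2, 3 and 4 (highest adjusted p = 0.111).

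The other 2 oxidase mRNAs did not pass. MT-CO2 (ENSG00000198712, chrM:7586-8269, plus strand, 684 bases), the subunit that takes electrons from cytochrome c, stood at 8282.7, 8028.8, 8365.0 and 8473.7 CPM in controls and at 8584.1, 7539.2, 7062.5 and 8268.4 CPM with the inhibitor. The groups overlapped, since inhibitor replicate 1 was the highest library and inhibitor replicate 3 the lowest. The log2 difference was −0.076 ± 0.062 (adjusted p = 0.303). It was called lower without inhibitor replicate 1 (−0.14, adjusted p = 0.0478) and was 0.027 with total counts. MT-CO3 (ENSG00000198938, chrM:9207-9990, plus strand, 784 bases), the third core subunit, stood at 5602.9, 5742.1, 5810.0 and 5737.1 CPM in controls and at 6441.0, 5221.9, 5404.0 and 5815.0 CPM with the inhibitor. Treated libraries lay on both sides of the controls, and the log2 difference was −0.001 ± 0.062 (adjusted p = 0.994).

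MT-ATP6 (ENSG00000198899, chrM:8527-9207, plus strand, 681 bases) encodes the subunit through which protons enter ATP synthase, complex V. It stood at 4533.7, 4610.1, 4669.1 and 4732.4 CPM in controls and at 4669.1, 4701.8, 4294.4 and 4719.9 CPM with the inhibitor. Apart from inhibitor replicate 3, the treated libraries lay within the range of the controls. The log2 difference was −0.012 ± 0.054 (adjusted p = 0.862).

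**Figure D2:**
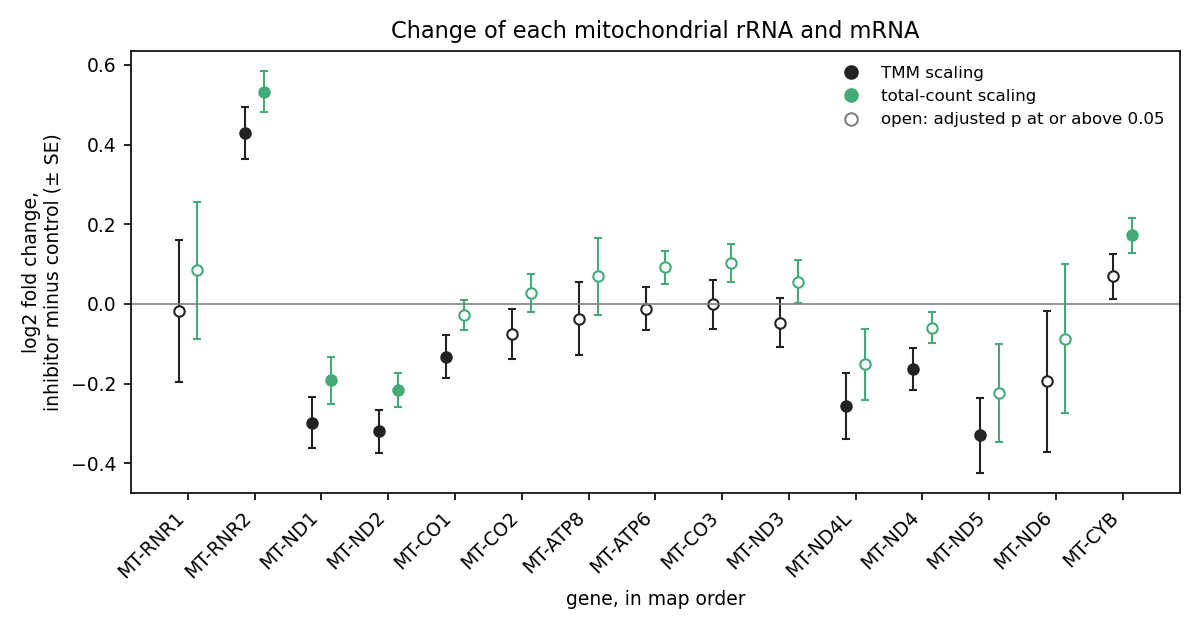
Log2 difference, inhibitor minus control, of both rRNAs and all 13 mRNAs in map order with its standard error, with TMM scaling (black) and total-count scaling (green); open points did not pass an adjusted p of 0.05. MT-RNR2 stands at 0.43 and MT-ND5 at −0.33 with TMM, and total counts shift every gene upward, which leaves MT-ND1 and MT-ND2 as the genes called lower and adds MT-CYB to those called higher.

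Set against each other as sums, the rRNAs took a larger share of the library with the inhibitor and the 8 mRNAs did not. The rRNAs held 0.852, 0.8, 0.892 and 0.849% of all counts in controls and 1.34, 1.07, 1.17 and 1.14% with the inhibitor, a mean of 0.849 ± 0.0377% and 1.18 ± 0.112% (SD, n = 4 each). The groups did not overlap. The 8 mRNAs held 5.08, 5.04, 5.13 and 5.12% in controls and 5.19, 5.09, 4.96 and 5.16% with the inhibitor, and the groups did overlap. On the TMM scale the same mRNA sum was lower in every treated library, 52785.3 ± 536.0 against 49199.7 ± 1929.7 CPM (log2 difference −0.10), but with total counts the difference was 0.002. All 10 genes together took 5.84 to 6.02% of control libraries and 6.13 to 6.53% of treated ones. Exact 95% binomial intervals of these shares, such as 5.92 to 5.94% for control replicate 1, cover counting error only, since reads without molecular identifiers are not independent molecules.

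The ratio of rRNA to mRNA counts is free of library scaling, but not of how the libraries were made. The labels do not say whether rRNA was removed or poly(A) RNA selected, and whether capture of the rRNAs differed between libraries was not tested. The ratio was 0.168, 0.159, 0.174 and 0.166 in controls and 0.258, 0.211, 0.235 and 0.221 with the inhibitor. Every treated library was above every control, and inhibitor replicate 1 was the highest. The log2 ratio went from −2.59 ± 0.055 to −2.12 ± 0.12 (SD, n = 4 each), a difference of 0.47, and leaving out 1 library at a time gave 0.42 to 0.51. No p is given for these sums, since the genes were chosen with earlier results known. The 16S rRNA supplies most of the rRNA counts. With summed counts of all 13 mRNA genes in place of the 8, the difference was 0.48. When each of the 10 genes' log2 counts weighed the same within its class, it was 0.33 and the groups overlapped.

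**Figure D3:**
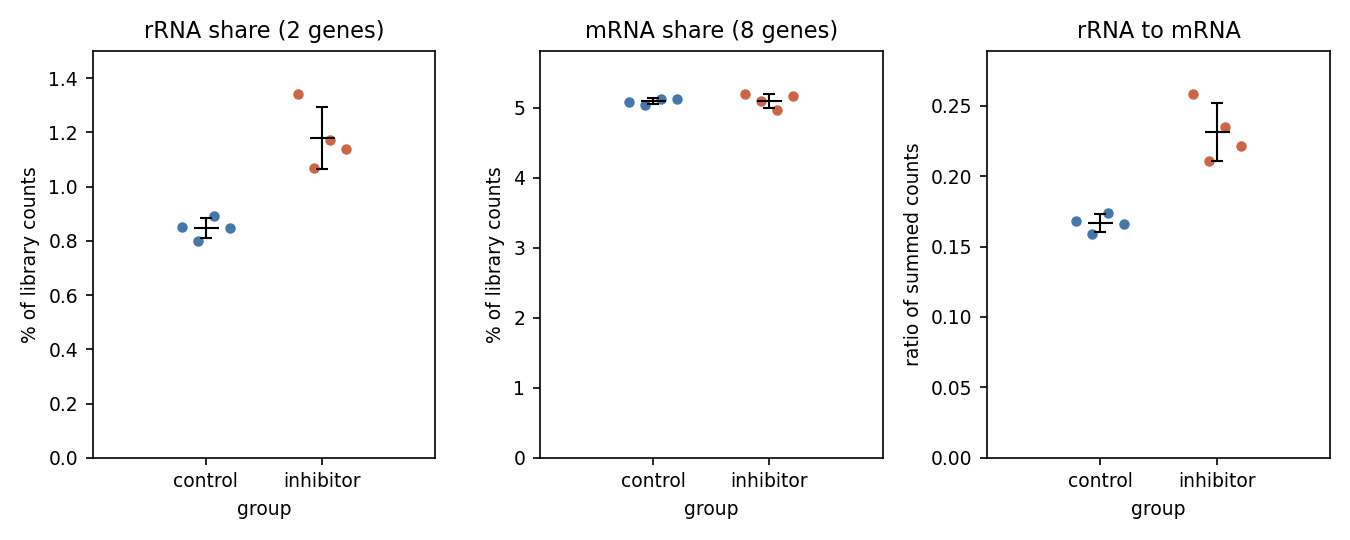
Shares of each library's counts taken by the 2 rRNA genes and by the 8 mRNA genes, in percent, and the ratio of the rRNA to the mRNA sum; each point is a library, and bars give the group mean and SD. The treated libraries lie at 1.07 to 1.34% rRNA against 0.8 to 0.892% in controls, while the mRNA shares of both groups lie between 4.96 and 5.19%.

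The make-up of the mitochondrial mRNA pool differed as well, and shares within it depend on no library scaling. MT-CYB took 7.15, 7.24, 7.10 and 7.19% of the counts of all 13 mRNA genes in controls and 8.60, 7.86, 8.03 and 8.06% with the inhibitor. MT-ATP6 took 7.91 ± 0.0947% and 8.49 ± 0.225%. Both shares were higher in every treated library, although neither gene's level passed the test. The share of MT-ND2 was lower in every treated library, at 5.42 ± 0.15% in controls and 4.70 ± 0.0685% with the inhibitor. The shares of MT-ND1, MT-ND4, MT-ND5, MT-CO1, MT-CO2 and MT-CO3 overlapped between groups. The ratio of MT-ND1 to MT-CYB counts was 0.673 ± 0.0109 in controls and 0.525 ± 0.0743 with the inhibitor, with no overlap. Summed by complex, the 7 complex I mRNA genes held 1.79 ± 0.0171% of all library counts in controls and 1.64 ± 0.0848% with the inhibitor, lower in every treated library. The 3 oxidase mRNAs held 3.01 ± 0.0254 and 3.03 ± 0.119%, with overlap.

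**Figure D4:**
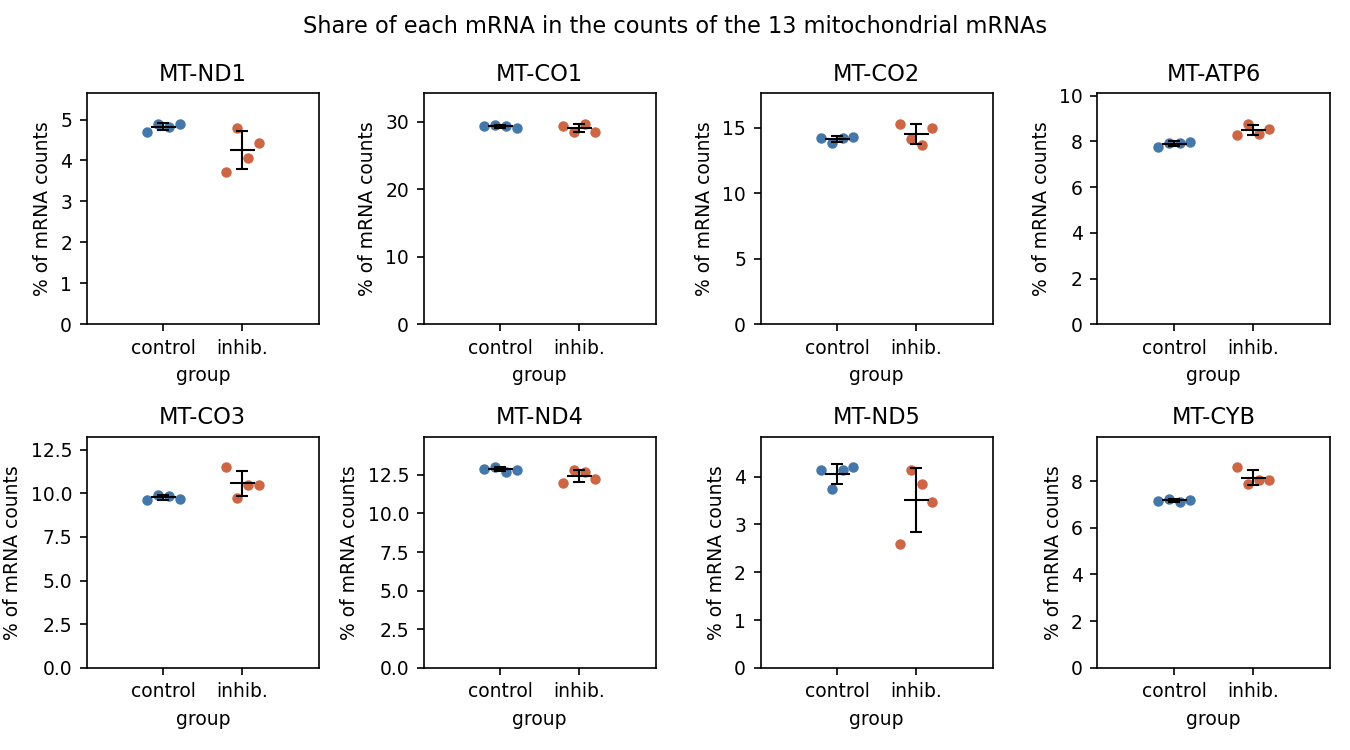
Share of each of the 8 mRNAs in the counts of all 13 mitochondrial mRNA genes, in percent; each point is a library, and bars give the group mean and SD. MT-CYB (mean 7.17% in controls, 8.14% with the inhibitor) and MT-ATP6 (7.91 and 8.49%) are higher in every treated library, and the other 6 overlap.

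Levels of different genes can be compared only per length. In controls the order of mean CPM per kilobase was MT-CO2 (12116.3 ± 276.9), MT-CO1 (11152.8 ± 70.9), MT-CO3 (7299.8 ± 110.6), MT-ATP6 (6808.1 ± 124.4), MT-ND4 (5465.7 ± 18.6) and MT-RNR2 (4834.7 ± 100.2). Then came MT-CYB (3683.9 ± 32.7), MT-ND1 (2958.1 ± 69.6), MT-RNR1 (1321.6 ± 264.2) and MT-ND5 (1312.3 ± 77.4). Neighbours in this order had separate libraries except the last, MT-RNR1 and MT-ND5. The oxidase mRNAs thus led the order and both rRNAs stood below MT-ND4. With the inhibitor MT-RNR2, at 6512.6 CPM per kilobase, passed MT-ND4, at 4876.9, and its libraries overlapped those of MT-ATP6 (6749.3). Neighbouring pairs MT-CO2 and MT-CO1, and MT-CO3 and MT-ATP6, also overlapped there. In cells the rRNAs are known as the most abundant mitochondrial transcripts, and the labels do not say whether rRNA was removed or poly(A) RNA selected, so this order is one of counts in these libraries.

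With both groups pooled, the members' deviations from their group means did not vary as 1 set, and MT-ND5 and MT-ND1 ran against several others. Across the 8 libraries, deviations from the group mean of log2 CPM had Pearson r between −0.907 and 0.983 over the 45 pairs of members, 31 of them above 0 and 14 below, a description in which every pair shares libraries and scaling. MT-CO1 varied with MT-CO3 (0.983) and with MT-CYB (0.964), and MT-RNR2 varied with MT-CO1 (0.937), whereas MT-ND5 ran against MT-CO3 (−0.907), MT-RNR2 (−0.872), MT-CO1 (−0.87) and MT-CYB (−0.857), and MT-ND1 against MT-RNR2 (−0.721). The largest opposite deviations were in treated libraries: MT-ND5 at −0.36 and 0.243 in inhibitor replicates 1 and 2, MT-RNR2 at 0.205 and −0.147. Controls did not show the opposition of MT-ND5 to MT-RNR2, MT-CO1, MT-CO3 or MT-CYB. Its negative coefficients with them came from the treated libraries. In control replicates 1 to 4 MT-ND5 deviated by 0.025, −0.129, 0.038 and 0.066, and MT-RNR2 by 0.016, −0.041, 0.028 and −0.003. MT-ND5, MT-RNR2 and MT-CO1 were all lowest in control replicate 2 (−0.129, −0.041 and −0.008), while MT-CO3 and MT-CYB were lowest in control replicate 1 (−0.03 and −0.011). Inhibitor replicate 1 had the highest MT-RNR2, MT-RNR1, MT-CO2, MT-CO3 and MT-CYB of all 8 and the lowest MT-ND5. Its MT-ND1 was also the lowest, at 2093.6 CPM, close to the 2102.1 CPM of inhibitor replicate 3. It also had the lowest MT-ND6. Without it, 1 member was called higher and 5 lower, MT-CO2 being the addition to the same 5 calls.

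Among the 5 other mitochondrial mRNA genes 2 fell, both of complex I. MT-ND2 stood at 3195.3, 3249.6, 3130.8 and 3126.9 CPM in controls and at 2611.3, 2554.7, 2393.5 and 2618.5 CPM with the inhibitor. All treated libraries were lower, with a log2 difference of −0.32 ± 0.054 (adjusted p = 1.61e-05), and the call held in all 18 alternatives (−0.35 to −0.22). MT-ND4L, which shares 7 bases with MT-ND4, went from 647.9 ± 39.3 to 542.8 ± 83.3 CPM (log2 difference −0.26 ± 0.082, adjusted p = 0.012), overlapped between groups, and was lost with total counts (−0.15, adjusted p = 0.152). MT-ND3 (−0.047 ± 0.062, adjusted p = 0.537), MT-ND6 on the other strand (−0.19 ± 0.18, adjusted p = 0.385) and MT-ATP8 (−0.037 ± 0.092, adjusted p = 0.755) did not pass. Over all 13 mRNA genes, 0 were higher and 6 lower, with a median of −0.13 beside 0.021 for all tested genes. Total counts gave 1 higher, 2 lower and a median of −0.028, beside a median of 0.13 for all tested genes under that scaling. By complex, 5 of the 7 complex I mRNA genes were called lower with TMM scaling, MT-ND3 and MT-ND6 being the exceptions. It was 1 of 3 for complex IV, 0 of 1 for complex III and 0 of 2 for complex V, beside 28.3% of all tested genes. These are counts of annotated genes, and neighbours that share bases, such as MT-ND4L and MT-ND4, were counted separately. With total counts only MT-ND1 and MT-ND2 stayed called lower, and MT-CYB of complex III was called higher. MT-ATP8 and MT-ATP6, joined by the overlap printed above, are read from 1 mature transcript, yet MT-ATP6 had 42.7 times the CPM per kilobase of MT-ATP8 in controls, and the labels do not say how the counting treated shared bases.

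Of the 22 mitochondrial tRNA genes 14 passed the filter, with 0 higher and 2 lower. The proline tRNA gene MT-TP went from 29.2 ± 2.73 to 22.4 ± 1.91 CPM (log2 difference −0.39 ± 0.087, adjusted p = 0.000517), lower in every treated library and called in all 18 alternatives. The asparagine tRNA gene MT-TN went from 54.5 ± 3.82 to 47.1 ± 7.18 CPM (−0.22 ± 0.09, adjusted p = 0.0436), a call lost in 7 of 18 alternatives. MT-TL1, the tRNA between the 16S rRNA and MT-ND1, stood at 40.7 ± 2.59 and 39.6 ± 3.76 CPM (−0.036 ± 0.078, adjusted p = 0.719). The 5 tRNA genes with at least 10 CPM in controls, MT-TC, MT-TN, MT-TL1, MT-TP and MT-TY, held 93.9% of all tRNA counts, and the other 17 stood at 2.75 CPM or less. Of those 5, 4 lie on the minus strand of the reference, as do 8 of all 22.

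Nuclear copies of mitochondrial mRNA genes could share reads with the 8 mRNAs. Copies of the 12S and 16S genes were not analysed here. The files list 404 mRNA copies by symbol, of which 10 passed the filter, and all together had 0.751 to 1.01% as many counts as the mitochondrial genes. MTATP6P1 on chromosome 1 was the most counted, with 3983 to 6352 counts a library and a log2 difference of −0.26 ± 0.066 (adjusted p = 0.00144). Beside it on that chromosome MTND2P28 differed by −0.35 ± 0.076 (adjusted p = 0.000547), and MTCO1P12 by −0.012 ± 0.10 (adjusted p = 0.931). The only other called copy, MTND1P23, named after its values were seen, had at most 18 counts (−0.93 ± 0.32, adjusted p = 0.0152). The values of these copies are uncertain, since near-identical reads could have been placed in either gene, and their part in the members' differences was not tested.

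The nuclear genes that act on mitochondrial transcripts were described by lists written from general knowledge. Their counts with TMM scaling should be read against 29.8% higher and 28.3% lower among all tested genes. Their counts with total-count scaling have another background, in which 60% of all tested genes were called, 63.5% of those higher, with a median of 0.13. Genes said to have risen or fallen passed the adjusted p of 0.05, and differences are on the log2 scale. Of 9 genes for mitochondrial transcription 1 was higher and 4 lower (median −0.11), or 2 and 2 with total counts. The RNA polymerase gene POLRMT fell from 158.0 ± 10.9 to 125.6 ± 9.91 CPM (−0.33 ± 0.065, adjusted p = 0.000123). The gene of the promoter-melting factor TFB2M fell by 0.61 ± 0.071 (adjusted p = 6.19e-08), and that of the DNA-packaging activator TFAM by 0.24 ± 0.073 (adjusted p = 0.00755), the latter lost with total counts (adjusted p = 0.135). MTERF2 rose (0.36 ± 0.089, adjusted p = 0.00119), a call held in all 18 alternatives. MTERF3 fell (−0.22 ± 0.084, adjusted p = 0.027), a call lost in 6 of 18, among them upper-quartile and total-count scaling. The elongation factor gene TEFM (0.048 ± 0.11, adjusted p = 0.736) and MTERF1, whose protein binds just after the 16S gene (0.17 ± 0.081, adjusted p = 0.0816), did not pass. MTERF1 was called higher with upper-quartile (0.20, adjusted p = 0.0387) and total-count scaling (0.27, adjusted p = 0.00598).

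Of 20 genes for RNA cutting and stability 12 fell and 1 rose (median −0.26). LRPPRC, whose protein holds mitochondrial mRNAs stable together with SLIRP, went from 159.3 ± 5.48 to 126.5 ± 7.94 CPM (−0.33 ± 0.059, adjusted p = 3.04e-05), and SLIRP itself fell by 0.65 ± 0.077. The genes of the RNA-degrading pair PNPT1 (−0.74 ± 0.073) and SUPV3L1 (−0.60 ± 0.068) fell, as did TBRG4 (−0.64 ± 0.057). REXO2, an exonuclease for short RNAs, rose by 0.20 ± 0.077 (adjusted p = 0.0297), a call lost in 7 of 18 alternatives. With total counts the list gave 11 lower and 1 higher.

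Of 26 genes for rRNA modification and ribosome assembly 14 fell and 3 rose (median −0.20), or 9 and 4 with total counts. ERAL1, a chaperone of the 12S rRNA, fell by 0.77 ± 0.063, and C1QBP fell by 0.91 ± 0.057. MRM1, a methyltransferase of the 16S rRNA, fell from 15.3 ± 1.49 to 8.95 ± 0.447 CPM (−0.78 ± 0.10), and DDX28, a helicase of large-subunit assembly, fell by 0.71 ± 0.096. NOA1, a GTPase, rose by 0.36 ± 0.067, RPUSD3, a pseudouridine synthase of the 16S rRNA, by 0.27 ± 0.079, and METTL15, a 12S methyltransferase, by 0.25 ± 0.084. Genes that act on the 16S rRNA thus stood among both the higher and the lower ones.

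Genes for copying mitochondrial DNA gave 8 lower and 3 higher of 16 (median −0.14), or 5 and 4 with total counts. The helicase gene TWNK fell from 59.1 ± 1.89 to 20.6 ± 0.84 CPM (−1.52 ± 0.072, adjusted p = 3.89e-15) and ATAD3A, a nucleoid-associated ATPase, fell by 1.07 ± 0.07. POLG, the DNA polymerase, rose by 0.34 ± 0.058 and RRM2B, a nucleotide reductase subunit, by 0.71 ± 0.082. Translation factors gave 5 lower and 3 higher of 14 (median −0.037), or 3 and 4 with total counts (median 0.069). The elongation factor genes TUFM (−0.34 ± 0.055) and GFM1 (−0.38 ± 0.071) and the recycling factor gene MRRF (−0.75 ± 0.065) fell, and GFM2 (0.41 ± 0.068) and MTIF3 (0.38 ± 0.077) rose. Of 10 regulators of mitochondrial biogenesis 5 fell and 2 rose (median −0.20). The coactivator genes PPRC1 (77.8 ± 1.54 to 27.1 ± 1.59 CPM, −1.52 ± 0.068) and PPARGC1B (27.6 ± 2.81 to 9.31 ± 0.647 CPM, −1.57 ± 0.098) fell, and so did the receptor gene ESRRA (−0.80 ± 0.058). CREB1 rose (0.36 ± 0.092), and PPARGC1A was called higher at 0.559 CPM in controls and 1.04 CPM with the inhibitor (0.91 ± 0.37, adjusted p = 0.0393), a call lost in 7 of 17 alternatives.

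The nuclear partners of the mitochondrial subunits gave 37 lower and 4 higher of 75 genes of complexes I, III, IV and V (median −0.15), or 21 and 12 with total counts (median −0.049). Under total-count scaling 63.5% of all called genes were higher, and the median of all tested genes was 0.13. For complex I the nuclear genes gave 14 lower and 3 higher of 37, beside 5 lower and 0 higher of 7 for the mitochondrial ones. NDUFB10 (−0.70 ± 0.064) and NDUFS8 (−0.66 ± 0.062) fell and NDUFA2 (0.44 ± 0.073) rose. For complex III it was 5 lower of 9, CYC1 (−0.53 ± 0.061) among them, beside 0 of 1. For complex IV it was 6 lower and 1 higher of 11, with COX5A at −0.42 ± 0.061, beside 1 lower of 3. For complex V it was 12 lower of 18, with ATP5F1D at −0.91 ± 0.07 and ATP5MC1 at −0.69 ± 0.068, beside 0 of 2. With total counts the nuclear genes gave 8 lower and 6 higher for complex I, 3 and 1 for complex III, 4 and 3 for complex IV, and 6 and 2 for complex V. The mitochondrial mRNAs called under that scaling were MT-ND1 and MT-ND2 of complex I, both lower, and MT-CYB of complex III, higher.

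**Figure D5:**
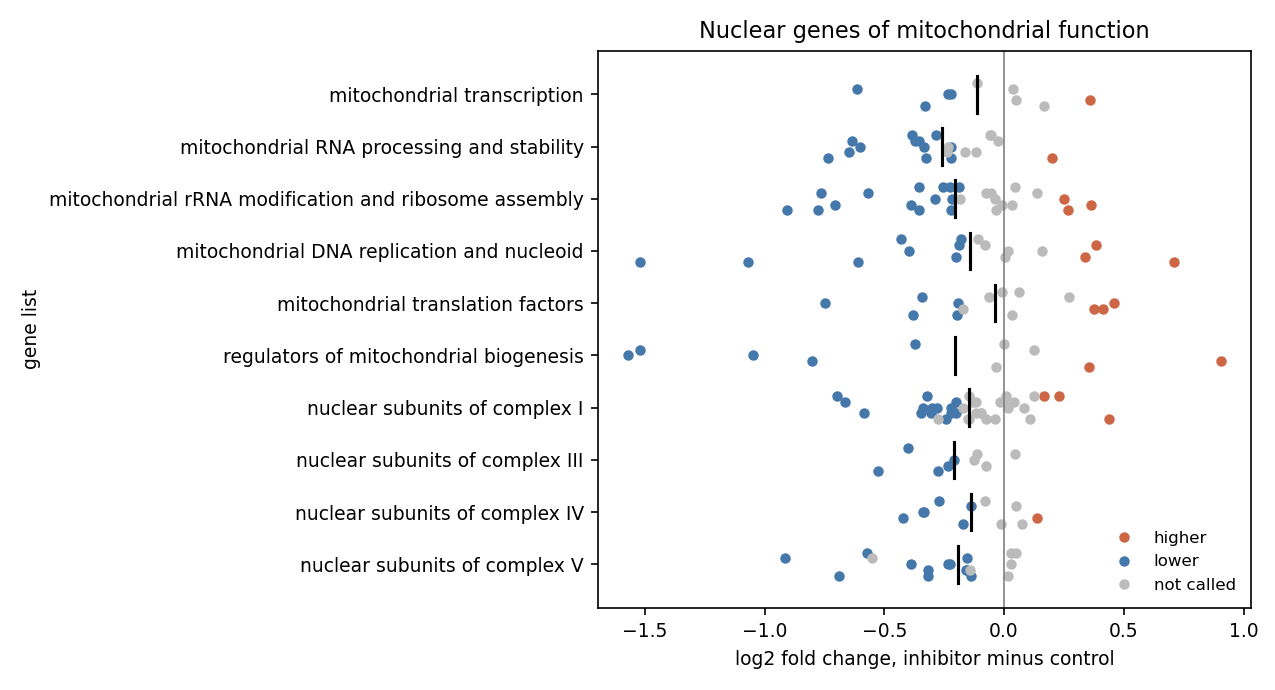
Log2 difference, inhibitor minus control (TMM scale), of every tested gene in the 10 lists of nuclear genes; each point is a gene, coloured by its call, and the black bar is the list's median. All 10 medians lie below 0, from −0.037 for translation factors to −0.26 for RNA cutting and stability, and with total counts that of translation factors is 0.069.

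Outside mitochondrial DNA, and with its nuclear copies left out, 10247 genes averaged 10 CPM or more. Among them, the 5 whose log2 CPM over the 8 libraries ran most like the mean of both rRNAs were ZNF525 (Pearson r = 0.926), MAD2L1BP (0.91), SMARCAL1 (0.902), AGBL5 (0.895) and WDR33 (0.886). Of these only AGBL5 was called, higher (log2 difference 0.20 ± 0.064, adjusted p = 0.0103). The others did not pass (adjusted p from 0.101 to 0.351). For the mean of the 8 mRNAs the 5 were DAP3 (0.995), MRPL20 (0.995), PCYOX1L (0.992), NCBP2AS2 (0.989) and MRPS15 (0.988), all called lower (highest adjusted p = 0.00275). These coefficients rank many genes over few libraries that share the group difference, and they are given with no p.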

How the data were processed

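RNA of 22Rv1 cells was sequenced in 4 control and 4 inhibitor-treated libraries. Each deposited file holds raw integer counts by gene, obtained by the authors with featureCounts on hg38, per the submitters' processing notes, which also name DESeq2. Aligner, annotation, library kit and strand setting: not given in the sources used here. Files list 58735 genes, of which 58207 were found in GENCODE release 44, the source of symbols and coordinates, and 0 lines named no gene. Sequences were read from the hg38 reference. The test was that of edgeR 4.0.16 under R 4.3.3: filterByExpr, TMM scaling, glmQLFit with robust dispersion and glmQLFTest on the group, Benjamini-Hochberg adjusted p under 0.05 called. The common biological CV was 7.2%. A standard error is the absolute log2 difference divided by the square root of the F statistic. Within groups every pair of libraries differed by more than sampling noise (chi-square per degree of freedom 1.71 to 9.47).

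The members, the gene lists and the tests were chosen with earlier results of these data known. By rule the text names the members, other mitochondrial genes, the most counted nuclear copies, up to 4 called genes per list and direction with the smallest p, 6 transcription and stability genes always, and the 5 genes most like each class. KRT8, EPCAM, DCN, CD3E and PECAM1 were named as markers after their values were seen, as were RN7SL1, RN7SK and RMRP among the RNAs without a poly(A) tail. As alternatives the scaling was RLE, upper-quartile, total-count, or TMM without mitochondrial genes, no filter, a filter of 1 CPM in 4 libraries, DESeq2 1.42.0, limma-voom (limma 3.58.1), no robust dispersion, a block on the replicate number, leaving out each library, and an adjusted p under 0.01 for the counts of calls. The procedure was tested on simulated counts.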

Additional observations from a re-analysis of the deposited data

Results flagged for a closer look

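Levels, shares and ratios given in the report, and the levels of the nuclear genes picked by its naming rule, were examined in 204 groups of 4 libraries, 84 of mitochondrial values and 120 of nuclear genes. In 9 of them 1 library stood apart from the other 3 by more than Dixon's 95% criterion allows; chance alone gives about 1 such group in 20. MT-RNR1 was at 1570.8 CPM in inhibitor replicate 1, the highest of its group, against 1120.4 to 1158.3 CPM in the other 3 (gap over range 0.916). That library also held the highest 16S rRNA. MT-ATP6 was at 4294.4 CPM in inhibitor replicate 3, the lowest of its group, against 4669.1 to 4719.9 CPM (0.881). MT-ND3 was at 896.5 CPM in control replicate 3, the lowest, against 942.8 to 946.2 CPM (0.932). MT-ATP8 was at 36.17 CPM in control replicate 1, the highest, against 31.66 to 32.39 CPM (0.838). The share of MT-ND5 in the mRNA counts was 3.74% in control replicate 2, the lowest, against 4.14 to 4.2% (0.87).

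Among nuclear genes RPUSD3 was at 35.47 CPM in control replicate 1, below 42.37 to 43.58 CPM in the other 3, and TWNK at 19.38 CPM in inhibitor replicate 4, below 20.90 to 21.14 CPM. In inhibitor replicate 3 OXA1L was at 90.15 CPM, below 98.50 to 99.52 CPM, and PPARGC1B at 10.27 CPM, above 8.90 to 9.11 CPM.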

How the results depend on the processing

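Scaling to total counts changed most: 2 members were called higher and 1 lower, and the summed mRNAs differed by 0.002 on the log2 scale. This scaling lifts the median of all genes to 0.13. With each gene weighing the same, the log2 rRNA to mRNA ratio differed by 0.33. Leaving out 1 library at a time gave 1 member higher, 3 to 5 lower, summed rRNA differences of 0.28 to 0.41, summed mRNA differences of −0.14 to −0.09, ratio differences of 0.42 to 0.51, and 4489 to 4757 genes higher and 4378 to 4766 lower. In 180 alternative fits of the members, 166 calls were as in the report, 12 were lost and 2 gained, in 5 genes. Of 339 fits of other mitochondrial genes 330 were as in the report, and of 1295 of the nuclear genes 1253; none changed the sign of a called value. The replicate number as a block, with 58.3% of genes called, gave 1 member higher and 3 lower and ended the MT-CO1 call (adjusted p = 0.0804). Same-numbered libraries had deviations correlated at 0.154, −0.115, −0.058 and 0.108, and only control replicate 1 correlated best with its own number. Deviations from means of 4 libraries cannot decide whether the numbers pair the libraries, and the labels do not say. The stricter filter removed PPARGC1A, which has no value there.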
